A study of Mus musculus with 24 samples.

Results

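The comparison concerned regulatory T cells (Tregs) that lack the insulin receptor, taken from the visceral adipose tissue (VAT) of old and of younger adult mice. Its members were 9 of the 24 samples of the series, chosen by their labels alone: 6 chow-fed knockout mice 52 weeks old and 3 chow-fed knockout mice 16 weeks old. Each sample was 1 male C57/Bl6 mouse, and VAT of each animal was digested on its own. The 6 old knockouts and the 3 younger knockouts were Foxp3-YFP-Cre;Insr-fl/fl animals on normal chow diet (NCD), the younger ones on it for 13 weeks from 3 weeks of age. Beside them stood 3 control mice of 52 weeks and 3 of 16 weeks on the same chow, which carried Foxp3-YFP-Cre with 2 wild-type Insr alleles. The 16-week controls also had 13 weeks of chow from 3 weeks of age, and the old mice of both genotypes are listed with 52 weeks on chow. The remaining 9 samples were 5 knockouts and 4 controls, 16 weeks old. They were given a diet rich in fat and sucrose for 13 weeks from 3 weeks of age and entered only the estimate of the spread.

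All mice carried the Cre allele, whose YFP marks cells with an active Foxp3 locus. Per the labels, this Cre line can recombine outside Tregs, and F4 mice bred from F3 littermates were used to match the background. The sort took CD45+CD4+Foxp3(YFP)+ cells, so it depended on the Foxp3 allele and its own transcript was measured in cells already gated on it. Lysates were counted on an nCounter SPRINT Profiler with a custom panel of 96 genes. In this assay each mRNA is bound by a colour-coded probe and the probes are counted one by one. The series describes old chow-fed mice as hyperinsulinaemic with age, and the comparison asks what differs between ages in Tregs without the insulin receptor.

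As background, Tregs are CD4+ T cells that restrain other immune cells under the lineage factor Foxp3 and the interleukin-2 receptor. In the visceral fat of lean mice a large resident population carries the IL-33 receptor ST2, the T helper 2 factor Gata3 and the adipocyte factor Pparg, and makes IL-10 and the repair factor amphiregulin. The insulin receptor is a tyrosine kinase that feeds into the PI3K-Akt pathway and is expressed by activated T cells.

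Deposited values were signal scaled to a panel total of about 100000 in each sample, so a value of 1000 is about 1% of all panel signal, and a gene can be lower because other genes are higher. Counts could be read back from the steps of each sample. Total counts ran from 21487 to 135141 in 52-week knockouts (n = 6) and from 11446 to 23790 in 16-week knockouts (n = 3). The mean log2 total differed by 1.42, a 2.68-fold difference, and the ranges overlapped (exact permutation test, two-sided, p = 0.0595; the smallest p that 84 splits allow is 0.0119).

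Low counts had an uneven spacing. In the 16-week knockouts, 82.4% of the counts between 6 and 60 ended in 9, 0, 1, 2 or 3, where even spacing gives 50%, and 1 count lay between 13 and 18 against 30 between 19 and 24. The share was 81.4% to 83.3% in the 3 mice. In the 52-week knockouts it was 89.3% in mouse 6 and 72.7% in mouse 1, against 40.4% to 47.6% in mice 2 to 5. The libraries of mice 1 and 6 thus shared this spacing with the 16-week libraries and those of mice 2 to 5 did not. How far this spacing adds to the error of a low count was not tested, and results were also obtained with each subset of the 52-week mice.

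InsR, the targeted gene, gave 2 to 4 counts in the 52-week knockouts and 1 to 2 in the 16-week knockouts. Its signal was 7.64 ± 5.85 in 52-week knockouts (SD, n = 6) and 10.5 ± 6.66 in 16-week knockouts (n = 3), with a log2 difference of -0.48 (SE 0.54, limma adjusted p = 0.494). The controls had 388 ± 112 at 52 weeks and 107 ± 49.7 at 16 weeks (n = 3 each), and every knockout mouse lay below every control mouse. Where the probe lies relative to the deleted exon is not stated in the labels.

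At 52 weeks, 52 of the 96 genes (54.2%) differed from 16 weeks in knockout Tregs at an adjusted p under 0.05 by limma with Benjamini-Hochberg adjustment. Of these, 12 were higher (12.5%) and 40 were lower (41.7%). The genes that fell included the Treg lineage genes, the IL-33 receptor and most of the effector genes on the panel, and those that rose included Igfbp7, Myadm, annexin A1, lamin A/C and 4 immediate early or stress genes (Fos, Fosb, Atf3 and Klf4). For 31 of the 52 the log2 difference exceeded 2 in size. The median over all 96 genes was -0.82, and 32 genes (33.3%) had no overlap between the 6 and the 3 mice, 9 above (9.38%) and 23 below (24%), all of them among the 52.

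The split between higher and lower depended on the scaling. With each sample centred on its median gene, 32 genes passed, 16 higher and 16 lower, 28 of them among the 52. Centred on the 4 reference genes Gusb, Hprt, Rpl19 and Sdha, 33 passed, 15 higher and 18 lower, 30 of them shared. These scalings moved the median of all genes to -0.06 and -0.24. 

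With mice 1 and 6 left out, 51 genes passed, 47 of them among the 52. With mice 2 to 5 left out, which kept only old mice 1 and 6, 30 genes passed, 29 of them shared. This subset is the smaller one, and fewer mice also let fewer genes pass. The difference between the subsets therefore cannot be credited to the spacing alone. All 52 kept their direction in both subsets and 26 passed in both. The 52 were picked with all 6 old mice, and both subsets were compared with the same 3 younger mice. A kept direction therefore follows in part from the choice and is no independent repeat. The first subset lost Il5, Lrrc32, Cxcr4, Ccr3 and IL-10. The second lost Ccr4, Ccr7, Tnfrsf9, Hprt, TGFb, Dgat1, Fos, Klf4, Cxcl2, Ccr2, Lyz2, Gata3, GzmA, GzmB, Perforin, IGF1R, Prdm1, Cd69 and 5 others.

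Leaving out 1 of the 3 younger mice ended more calls than leaving out 1 of the 6 old mice. An omission takes a larger part of the smaller group, so the difference cannot be credited to the younger mice themselves. Without 16-week mouse 1, 15 of the 52 genes were lost, among them Ccr7, Cxcl2, GzmB, IGF1R, Ccr2, Lrrc32, Lyz2 and IL-10. Without mouse 2, 14 were lost, among them Hprt, Trib1, RoRa, Ccr2, Lrrc32, Gata3 and Lyz2. Without mouse 3, 15 were lost, among them TGFb, Fos, Trib1, RoRa, GzmB, IGF1R, Perforin, Gata3 and IL-10. Omitting 1 of the 52-week mice lost 0 to 7 of the 52, most without mouse 2, and 28 genes passed in all 9 omissions.

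**Figure D1:**
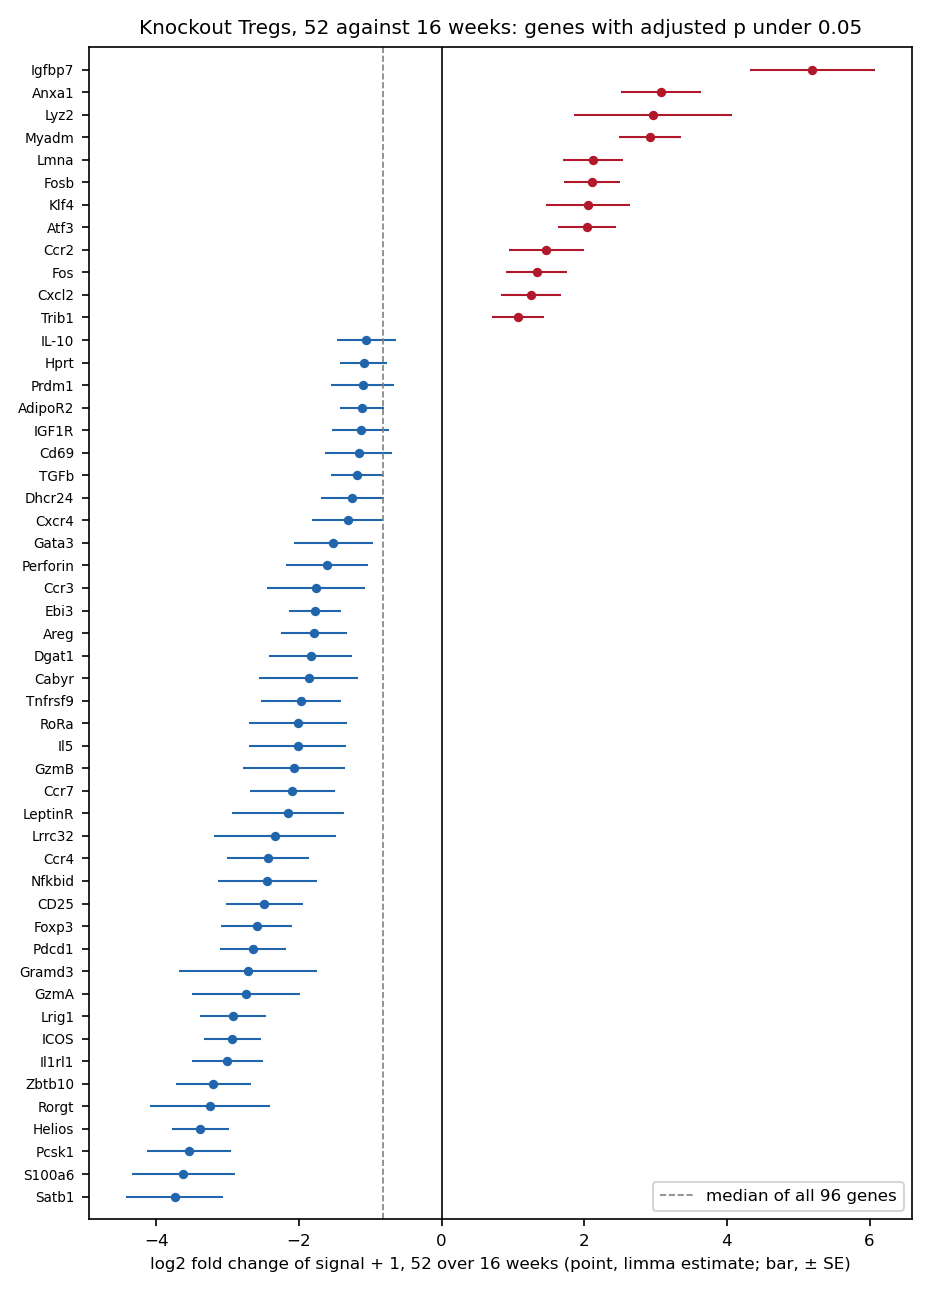
Log2 fold change of signal + 1 at 52 over 16 weeks in knockout Tregs, for 51 of the 52 genes with adjusted p under 0.05 (1 is not shown). Points are limma estimates, bars ± SE, and the dashed line is the median of all 96 genes at -0.82; Igfbp7 stands highest at 5.19 and Satb1 lowest at -3.74.

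All 5 measured members of the core Treg identity list fell: Foxp3, CD25, Helios, ICOS and Lrrc32, with a list median of -2.59 beside -0.82 for all genes, of which 41.7% fell. Under either centring 4 of the 5 still fell, all but Lrrc32. In bulk samples, fewer cells of a type and less RNA per cell cannot be told apart.

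Foxp3, the lineage factor, had signals of 172, a median of 676 and 1418 as lowest, middle and highest in the 52-week knockouts, against 3001, 3417 and 3434 in the 16-week knockouts. Every old mouse lay below every younger one, and the old mice spread over a wide range while the younger ones were close together. Its log2 fold change was -2.59 (SE 0.50, limma adjusted p = 0.00024).

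Helios, a transcription factor of stable Tregs also named Ikzf2, ran from 173 through a median of 227 to 763 in 52-week knockouts, against 2967, 3451 and 2001 in 16-week knockouts. The groups were apart, and mouse 5 alone among the old mice exceeded 280. With a log2 fold change of -3.38 (SE 0.39, limma adjusted p = 1.47e-06) it had the smallest p of the panel.

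CD25, the alpha chain of the interleukin-2 receptor, ran from 172 through a median of 392 to 2420 in 52-week knockouts, against 3806, 2045 and 2507 in 16-week knockouts. Old mouse 5 lay within the range of the younger mice and the other 5 lay below it. The log2 fold change was -2.48 (SE 0.54, limma adjusted p = 0.00078). The value of old mouse 1 was no whole number of counts, and the call was the same with it set to missing.

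ICOS, a costimulatory receptor, was at 108 to 256 with a median of 243 in 52-week knockouts, against 1577, 2559 and 829.98 in 16-week knockouts. The groups did not overlap, and the log2 fold change was -2.93 (SE 0.40, limma adjusted p = 8.74e-06).

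Lrrc32, which encodes the surface receptor GARP that holds latent TGF-beta, ran from 15.6 through a median of 208 to 312 in 52-week knockouts, against 1257, 1452 and 183 in 16-week knockouts. Younger mouse 3, with 21 counts, lay among the old mice. Its log2 fold change was -2.33 (SE 0.85, limma adjusted p = 0.0263), and it no longer passed without 16-week mouse 1 or 2, with mice 1 and 6 left out of the old group, or under either centring.

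The summed signal of the 4 Treg markers measured (Foxp3, CD25, Helios and Tcra) was 689 to 4812 with a median of 1788 in 52-week knockouts, against 8195 to 10840 in 16-week knockouts. Tcra, the T cell receptor alpha gene, stood at 7.43 to 698 with a median of 266 in 52-week knockouts, against 1066, 761.7 and 253 in 16-week knockouts. Its log2 difference of -1.92 (SE 1.05) did not pass (limma adjusted p = 0.126), and mouse 1, the deepest library, held 10 counts of it.

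Of 7 suppressive effectors measured and matched to a symbol, 6 fell and 1 (Il10ra, the IL-10 receptor chain) did not pass. Their median was -1.79, beside 41.7% lower among all genes. Perforin and TGFb, whose panel names matched no single symbol, are given below and are not among the 7. Centred on the sample median 2 fell (Pdcd1 and GzmA), and centred on the reference genes 4 did (Areg and Ebi3 as well). Pdcd1, the inhibitory receptor PD-1, was at 87.5 to 805 with a median of 248 in 52-week knockouts, against 1552, 1616 and 1599 in 16-week knockouts. The old mice were all below the tight range of the younger ones, and the log2 fold change was -2.64 (SE 0.46, limma adjusted p = 0.000101).

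Ebi3, a subunit of the cytokines IL-27 and IL-35, was at 43.3 to 65.2 with a median of 55.7 in 52-week knockouts, against 206, 164 and 183 in 16-week knockouts. Both groups were narrow and apart, with a log2 fold change of -1.77 (SE 0.36, limma adjusted p = 0.000324). It rested on 12 to 73 counts in the old and 21 to 42 in the younger mice, and it did not pass when samples were centred on their median.

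Areg, the epidermal growth factor family ligand amphiregulin, ran from 101 through a median of 246 to 675 in 52-week knockouts, against 928, 673 and 821 in 16-week knockouts. Mouse 5 lay just above the lowest younger mouse and the other 5 were below it. The log2 fold change was -1.79 (SE 0.46, limma adjusted p = 0.00354), lost under centring on the median.

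Among the cytotoxic genes GzmA (granzyme A) fell by 2.74 on the log2 scale (SE 0.76, limma adjusted p = 0.00593), on 3 to 121 counts in the old and 31 to 57 in the younger mice. GzmB (granzyme B) had a log2 fold change of -2.07 (limma adjusted p = 0.0221) and Perforin, the panel's name for the pore-forming protein, -1.61 (limma adjusted p = 0.0238). For each of the 3 genes old mouse 6 lay within the range of the younger mice, and GzmB had 2 to 123 counts in the old and 22 to 31 in the younger mice. GzmB and Perforin were called under neither centring (limma adjusted p from 0.145 to 0.218).

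IL-10, the suppressive cytokine, ran from 44.02 through a median of 75.1 to 135 in 52-week knockouts, against 196, 118 and 210 in 16-week knockouts, on 17 to 182 counts in the old and 24 to 40 in the younger mice. The groups overlapped, and its log2 fold change of -1.05 (SE 0.42, limma adjusted p = 0.038) was lost with either subset of the old mice and in 5 of the 9 omissions of 1 mouse. TGFb, the panel's name for a gene that matched several symbols, fell by 1.19 on the log2 scale (SE 0.37, limma adjusted p = 0.0117) and not under either centring.

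**Figure D2:**
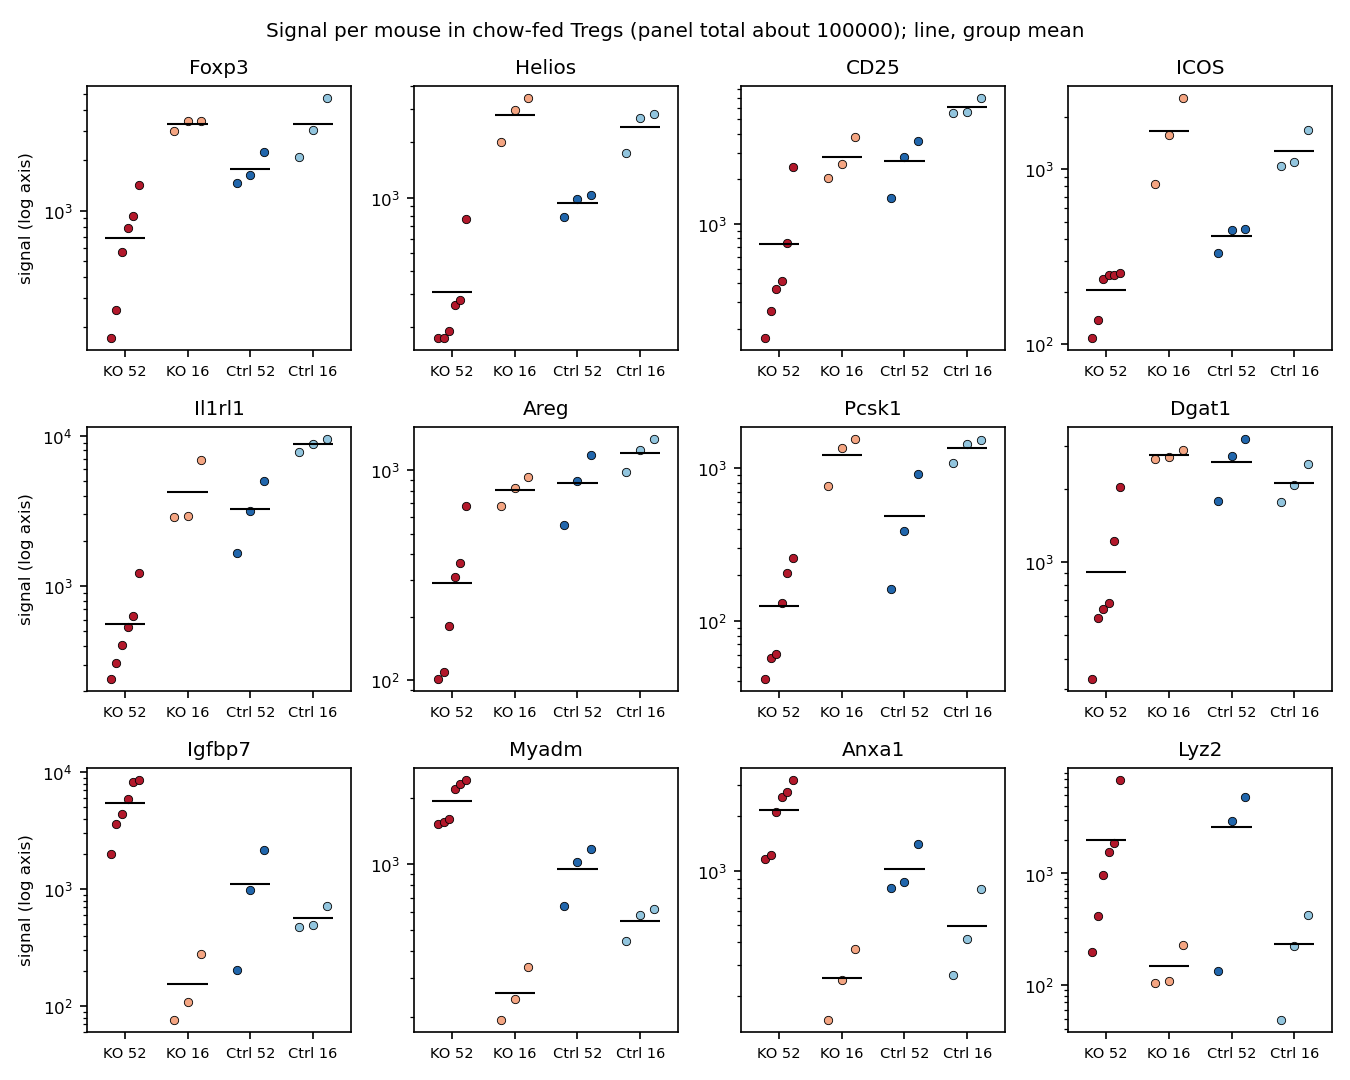
Signal of 12 genes in each chow-fed mouse on a log axis, in knockouts at 52 (KO 52, n = 6) and 16 weeks (KO 16, n = 3) and controls at 52 and 16 weeks (Ctrl 52 and Ctrl 16, n = 3 each); points are mice, lines group means. Foxp3, Helios, ICOS, Il1rl1 and Pcsk1 lie lower and Igfbp7, Myadm and Anxa1 higher in all 6 old knockouts than in all 3 younger ones.

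Of the 16 measured members of the visceral adipose Treg list, 10 fell, 1 rose (Ccr2) and 5 did not pass (Ccr1, Cxcr6, Irf4, Klrg1 and Pparg), with a median of -1.31, beside 41.7% lower and 12.5% higher among all genes. Centred on the sample median 2 fell (Il1rl1 and Pcsk1), and centred on the reference genes 3 did (Areg as well), while Ccr2 rose under both. Il1rl1, which encodes the IL-33 receptor ST2, ran from 240.02 through a median of 470.2 to 1231 in 52-week knockouts, against 6925, 2874 and 2927 in 16-week knockouts. The groups did not overlap, and the log2 fold change was -3.01 (SE 0.50, limma adjusted p = 5.9e-05). The value of old mouse 5 was no whole number of counts.

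Pcsk1, the prohormone convertase that cuts peptide hormone precursors such as proinsulin, was at 41.3 to 258 with a median of 95.1 in 52-week knockouts, against 1552, 1347 and 769 in 16-week knockouts. All old mice were below all younger ones, with a log2 fold change of -3.54 (SE 0.59, limma adjusted p = 5.9e-05).

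Dgat1, the enzyme of the last step of triglyceride synthesis, ran from 329 through a median of 659.8 to 2025 in 52-week knockouts, against 2642, 2698 and 2892 in 16-week knockouts. The groups were apart, but the log2 fold change of -1.83 (SE 0.58, limma adjusted p = 0.0142) was not called under either centring.

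RoRa, a nuclear receptor of the ROR family, fell by 2.01 on the log2 scale (SE 0.69, limma adjusted p = 0.0206). It spanned 52.8 to 1275 in 52-week knockouts, below the 1380, 1873 and 1721 of the 16-week knockouts. Tnfrsf9, the costimulatory receptor 4-1BB, fell by 1.97 (SE 0.56, limma adjusted p = 0.00689), with old mouse 1 within the range of the younger mice. Neither passed under either centring.

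Gata3, the T helper 2 factor, ran from 140 through a median of 402 to 1653 in 52-week knockouts, against 909, 1208 and 2595 in 16-week knockouts. Mice 1 and 5 lay within the range of the younger mice. Its log2 fold change of -1.51 (SE 0.56, limma adjusted p = 0.0273) was lost in 5 of the 9 omissions of 1 mouse. Prdm1, which encodes the effector factor Blimp-1, had -1.10 (limma adjusted p = 0.0386), lost in 6 of them.

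Pparg was at 79.3 to 130.3 with a median of 97.1 in 52-week knockouts, against 172, 88.4 and 175 in 16-week knockouts, on 20 to 35 counts in the younger mice. The groups overlapped, and the log2 difference of -0.45 (SE 0.45) did not pass (limma adjusted p = 0.435); it was 0.32 under centring on the median. Klrg1, a marker of terminally differentiated cells, ran from 23.0 through a median of 146 to 931 in 52-week knockouts, against 255, 370.3 and 183 in 16-week knockouts. The younger mice lay inside the range of the old ones, with a log2 difference of -0.92 (SE 0.86, limma adjusted p = 0.392).

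Of 6 measured activation receptors 4 fell (ICOS, Pdcd1, Tnfrsf9 and Cd69) and 2 did not pass (Cd44 and Klrg1), with a median of -1.57, beside 41.7% lower among all genes. Under either centring 2 fell, ICOS and Pdcd1. Cd69, an early activation and retention marker, had a log2 fold change of -1.16 (SE 0.47, limma adjusted p = 0.0406) with no overlap between groups. It was lost in 6 of the 9 omissions of 1 mouse and under either centring.

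Of 8 measured receptors of chemokines and homing, 5 fell, 1 rose and 2 did not pass, with a median of -1.54, beside 41.7% lower among all genes. Centred on the sample median 2 fell and Ccr7, Cxcr4 and Ccr3 were not called, and centred on the reference genes 3 fell, Ccr7 among them. Ccr4, a receptor of tissue-homing T cells, was at 16.5 to 139 with a median of 55.9 in 52-week knockouts, against 182, 274 and 524 in 16-week knockouts. The groups did not overlap, with a log2 fold change of -2.43 (SE 0.57, limma adjusted p = 0.00168). Ccr7, the receptor for lymph node entry, had a log2 fold change of -2.09 (SE 0.60, limma adjusted p = 0.00689), and old mouse 1, at 690, lay above the lowest younger mouse at 620.

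Cxcr4 (-1.32, limma adjusted p = 0.0292) and Ccr3 (-1.76, limma adjusted p = 0.036) overlapped between ages, and Ccr3 had 3 to 18 counts in the old and 10 to 12 in the younger mice. Neither was called under either centring, where Cxcr4 had -0.55 and -0.73 and Ccr3 -0.99 and -1.18. Ccr3 was also lost in 6 of the 9 omissions of 1 mouse and Cxcr4 in 4. Ccr2, the receptor of the monocyte chemokine Ccl2, was the one that rose. It ran from 202 through a median of 419 to 706 in 52-week knockouts, against 98.2, 122 and 218 in 16-week knockouts. Old mouse 4 lay within the younger range and the other 5 above it, with a log2 fold change of 1.47 (SE 0.52, limma adjusted p = 0.0238). The younger mice had 20 to 29 counts of it.

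Satb1, a chromatin organiser of the T cell genome, had the largest fall. It ran from 13.4 through a median of 128 to 233 in 52-week knockouts, against 1788, 1149 and 708 in 16-week knockouts. The groups were apart, and the log2 fold change was -3.74 (SE 0.67, limma adjusted p = 0.000128). It belonged to a list of 4 factors of other T helper fates, of which Satb1 and RoRa fell and Tbet and Nr1d1 did not pass, with a median of -1.46. Rorgt, whose panel name matched no symbol, is not among the 4. A share of 2 in 4 is close to the 41.7% of all genes that fell, and under either centring Satb1 was the one called.

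Rorgt, the panel's name for the Th17 factor, had signals of 24.5 to 233 in 52-week knockouts, against 162, 1359 and 2752 in 16-week knockouts. Old mice 4 and 5 lay above younger mouse 1 and the others below it, and the log2 fold change was -3.25 (SE 0.84, limma adjusted p = 0.00354). Old mice 1, 2, 3 and 6 had 33, 31, 35 and 33 counts and younger mouse 1 had 33, at totals from 20360 to 135141, so in 5 of the 9 libraries the count did not follow depth.

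Lrig1, a transmembrane regulator of epidermal growth factor receptors, was at 102 to 225 with a median of 202 in 52-week knockouts, against 1984, 1629 and 716 in 16-week knockouts. The groups were far apart, with a log2 fold change of -2.92 (SE 0.46, limma adjusted p = 5.12e-05). S100a6, a calcium-binding protein, was at 11.1 to 116 with a median of 53.2 in 52-week knockouts, against 192, 690.2 and 1380.4 in 16-week knockouts. It did not overlap either, with a log2 fold change of -3.62 (SE 0.72, limma adjusted p = 0.000304). Zbtb10, a zinc finger protein, fell by 3.20 (SE 0.53, limma adjusted p = 5.9e-05) on 7 to 21 counts in the old and 23 to 53 in the younger mice.

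Few counts lay behind part of the fall. In 12 of the 40 lower genes no 16-week mouse had more than 60 counts, among them Zbtb10, Ebi3, GzmA, GzmB, IL-10, Prdm1, Ccr3 and Il5. The last, a type 2 cytokine, had 1 to 6 counts in the old and 4 to 5 in the younger mice, so its log2 fold change of -2.02 (limma adjusted p = 0.0201) lies at the limit of detection. Of the 12, 9 still passed with mice 1 and 6 left out and 4 with mice 2 to 5 left out. Of the 28 lower genes with more counts, 26 and 18 did. The second subset held fewer old mice.

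Of the 6 measured immediate early and stress genes 4 rose (Fos, Fosb, Atf3 and Klf4), Nfkbid fell and Nr4a1 did not pass, with a list median of 1.68, beside 12.5% higher and 41.7% lower among all genes. The 250 bases before the start of the risen genes are shown because these 4 genes moved together. They are RefSeq sequences of GRCm38.p6, 5′ to 3′ on the strand of the gene, with TGACG, the core of the cyclic AMP response element, in capitals on either strand (CGTCA on the other).
Fos, chr12:85473640-85473889, plus strand: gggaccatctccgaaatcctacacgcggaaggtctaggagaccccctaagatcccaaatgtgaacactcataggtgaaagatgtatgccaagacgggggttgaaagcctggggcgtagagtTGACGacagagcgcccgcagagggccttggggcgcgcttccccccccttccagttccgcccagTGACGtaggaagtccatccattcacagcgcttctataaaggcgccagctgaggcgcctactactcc
Fosb, chr7:19310046-19310295, minus strand: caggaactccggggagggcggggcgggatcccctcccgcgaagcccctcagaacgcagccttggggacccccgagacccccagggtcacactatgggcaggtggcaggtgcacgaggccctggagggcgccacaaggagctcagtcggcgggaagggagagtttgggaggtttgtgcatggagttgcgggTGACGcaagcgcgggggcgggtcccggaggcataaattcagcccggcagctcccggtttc
Atf3, chr1:191183334-191183583, minus strand: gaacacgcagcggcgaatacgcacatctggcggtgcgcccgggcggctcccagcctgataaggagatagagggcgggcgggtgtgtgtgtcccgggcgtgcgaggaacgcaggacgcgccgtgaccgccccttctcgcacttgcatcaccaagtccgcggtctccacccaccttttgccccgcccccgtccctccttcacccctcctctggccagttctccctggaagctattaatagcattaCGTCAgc
Klf4, chr4:55532476-55532725, minus strand: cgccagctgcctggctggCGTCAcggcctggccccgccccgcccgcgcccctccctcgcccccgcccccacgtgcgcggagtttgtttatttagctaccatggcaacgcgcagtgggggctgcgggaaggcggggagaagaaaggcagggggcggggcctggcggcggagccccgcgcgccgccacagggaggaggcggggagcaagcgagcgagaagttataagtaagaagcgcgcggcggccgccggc

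The core lay at -129 to -125 and -66 to -62 of Fos, -60 to -56 of Fosb, -7 to -3 of Atf3 and -232 to -228 of Klf4, where -1 is the base before the start. It occurred in 17.8% of 32851 windows of this length and in 18 of the 73 panel genes with one (24.7%). It was searched after the sequences had been seen, and all 6 genes of the list held it, including the one that fell and the one that did not pass. The full element TGACGTCA (1.55% of windows) and the AP-1 motif TGANTCA (6.75%), searched on both strands, had no match in these 4 windows.

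Fosb, an AP-1 subunit induced within minutes of stimulation, ran from 9010.2 through a median of 12453 to 16998 in 52-week knockouts, against 3059.9, 2769 and 2831 in 16-week knockouts. All old mice were above all younger ones, with a log2 fold change of 2.11 (SE 0.39, limma adjusted p = 0.00017).

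Atf3, a stress-induced transcription factor, was at 4138 to 5791 with a median of 4888 in 52-week knockouts, against 997, 863 and 1966 in 16-week knockouts, a log2 fold change of 2.04 (SE 0.40, limma adjusted p = 0.000269). Klf4, a Krüppel-like factor, was at 5119 to 10725 with a median of 9486 in 52-week knockouts, against 1744, 2386 and 2053 in 16-week knockouts, a log2 fold change of 2.05 (SE 0.59, limma adjusted p = 0.00689). Neither gene overlapped between ages.

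Fos, the partner of Jun in AP-1, was at 5366 to 17223 with a median of 13920.3 in 52-week knockouts, against 5830.1, 4899 and 3582 in 16-week knockouts. Mouse 5 lay within the younger range, and the log2 fold change of 1.33 (SE 0.43, limma adjusted p = 0.0158) was lost without 16-week mouse 3. Nfkbid, a nuclear IκB protein, was at 16.3 to 572 with a median of 286 in 52-week knockouts, against 923, 1140.5 and 1101 in 16-week knockouts. It fell by 2.45 on the log2 scale (SE 0.69, limma adjusted p = 0.00689), with no overlap. It was not called when samples were centred on the reference genes (limma adjusted p = 0.0863), scaled outside the immediate early list and Igfbp7, or when only the 2 groups were fitted. Nr4a1, a nuclear receptor induced by T cell receptor signalling, had a log2 difference of 0.08 (SE 0.33, limma adjusted p = 0.87).

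Together the 6 genes made up 28.0% to 53.0% of the panel signal in 52-week knockouts, with a median of 45.3%, against 14.0% to 15.1% in 16-week knockouts. Among the old mice, mouse 5 had the lowest share and the highest summed Treg markers, at 4812, and mouse 2 the highest share and the lowest summed Treg markers, at 689. Between these extremes the sums did not follow the shares. Mice 1, 6, 3 and 4 had shares of 32.5%, 43.8%, 46.8% and 48.0%, and sums of 1964, 1042, 1985 and 1611. Since the panel total is fixed, a larger share for these genes lowers the signal of all others. When samples were scaled over the genes outside the list and Igfbp7, 32 genes passed, 16 higher and 16 lower, and Foxp3, CD25, Helios, ICOS, Il1rl1 and Pcsk1 still fell.

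**Figure D3:**
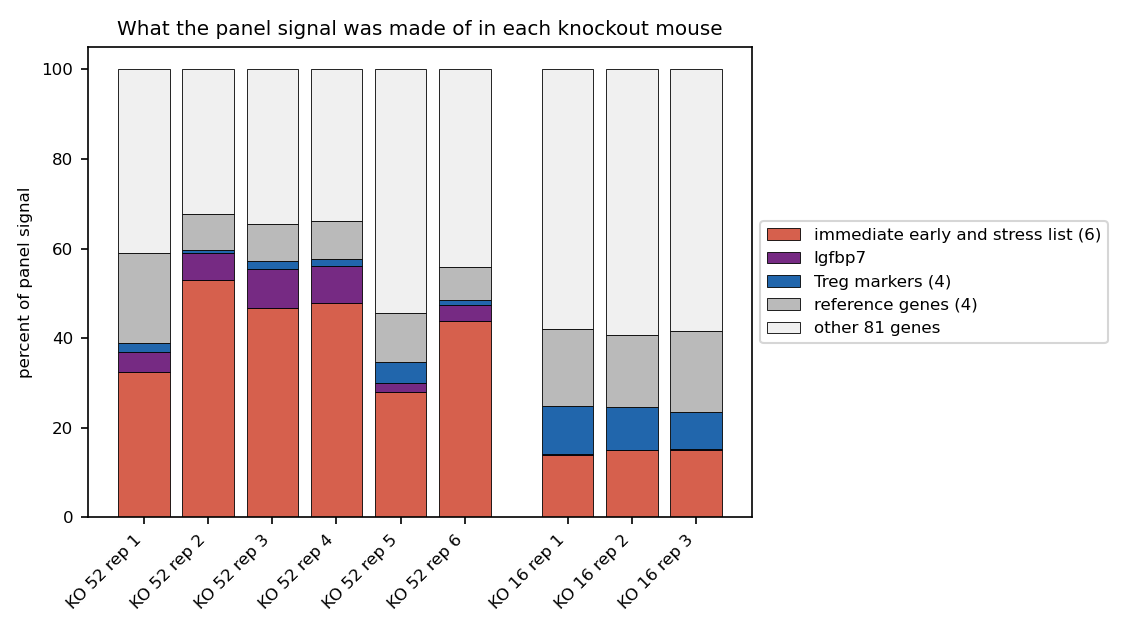
Percent of the panel signal of each knockout mouse taken by 6 immediate early and stress genes, Igfbp7, 4 Treg markers, 4 reference genes and the other 81 genes. The immediate early genes hold 28.0% to 53.0% in the 52-week mice (left) and 14.0% to 15.1% in the 16-week mice (right).

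Igfbp7, a secreted protein that binds insulin-like growth factors and is abundant in endothelium and stroma, rose most. It ran from 2001 through a median of 5159 to 8571 in 52-week knockouts, against 108, 75.8 and 280 in 16-week knockouts. The lowest old mouse was above the highest younger mouse, with a log2 fold change of 5.19 (SE 0.88, limma adjusted p = 6.43e-05). It rested on 430 to 5889 counts in the old and 18 to 32 in the younger mice, where low counts were unevenly spaced. It took 5.45% of the panel signal on average in the old mice and 0.154% in the younger ones.

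Igfbp7 is also one of 2 measured genes of an 8-gene stromal and endothelial marker list. The other, Cd9, a tetraspanin, had a log2 difference of 1.25 (SE 0.55, limma adjusted p = 0.0619). Their summed signal was 2443 to 9751 in 52-week knockouts and 516 to 559 in 16-week knockouts. The part of such cells in the rise of Igfbp7 was not tested.

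Myadm, a membrane protein first described in myeloid cells, was at 1526 to 2426 with a median of 1912 in 52-week knockouts, against 339, 239.9 and 192 in 16-week knockouts. The old mice lay close together and far above the younger ones, with a log2 fold change of 2.93 (SE 0.44, limma adjusted p = 2.72e-05). Anxa1, the phospholipid-binding annexin A1, was at 1158 to 3180.4 with a median of 2327 in 52-week knockouts, against 147, 248 and 367 in 16-week knockouts. It did not overlap either, with a log2 fold change of 3.08 (SE 0.57, limma adjusted p = 0.000154), on 30 to 59 counts in the younger mice.

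Lmna, the gene of the nuclear lamins A and C, was at 1715 to 3975 with a median of 2022 in 52-week knockouts, against 476, 593 and 524 in 16-week knockouts. All old mice were above all younger ones, with a log2 fold change of 2.13 (SE 0.42, limma adjusted p = 0.000269). Anxa1 and Lmna rose, S100a6 fell and S100a4 did not pass among the 4 measured genes of the list of S100 proteins, annexins and structural proteins. The list median was 0.82, beside 12.5% higher and 41.7% lower among all genes.

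Cxcl2, a neutrophil chemokine, was at 1090 to 4379 with a median of 1750.3 in 52-week knockouts, against 569.7, 859 and 1083 in 16-week knockouts. The highest younger mouse nearly reached the lowest old one, and the log2 fold change was 1.25 (SE 0.42, limma adjusted p = 0.0182). Trib1, a pseudokinase, rose by 1.07 on the log2 scale (SE 0.36, limma adjusted p = 0.0201).

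Lyz2, the lysozyme of macrophages and neutrophils, ran from 198 through a median of 1255 to 6875 in 52-week knockouts, against 108, 105 and 227 in 16-week knockouts. Old mouse 1 lay within the younger range and mouse 6 stood far above the rest. The log2 fold change was 2.96 (SE 1.11, limma adjusted p = 0.0279), lost without old mouse 6, or younger mouse 1 or 2. Lyz2 had 22 to 26 counts in the younger mice. It is the only one of the 9 listed macrophage and monocyte markers on the panel. Mmp12, a matrix metalloproteinase outside that list, had 1 to 2 counts in the younger and 2 to 205 in the old mice. Its log2 difference of 2.69 (SE 1.23) did not pass (limma adjusted p = 0.0695). Of 6 neutrophil markers, Cxcl2 and Mmp9 were measured, with a summed signal of 1155 to 4435 in 52-week knockouts and 580 to 1258 in 16-week knockouts. Most of this sum was Cxcl2. Mmp9 was at 12.6 to 65.0 in 52-week knockouts, inside the 4.21 to 175 of 16-week knockouts. Its log2 difference of 0.63 did not pass (limma adjusted p = 0.562).

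Among other markers, both cytotoxic genes matched to a symbol (GzmA and GzmB) fell. Perforin, which matched none, is not counted here. All 3 measured genes shared with type 2 innate lymphoid cells (Il5, Gata3 and Il1rl1) fell too, beside 41.7% lower among all genes. Under either centring GzmA and Il1rl1 were called and GzmB, Il5 and Gata3 were not. None of the 6 B cell and antigen-presenting or 5 adipocyte markers listed for this comparison was measured. The sort gate required CD45 and CD4, and the share of other cell types in the sorted samples was not tested.

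Of the 3 measured genes of insulin and insulin-like growth factor signalling, 1 fell, beside 41.7% lower among all genes. It was IGF1R, the receptor that most resembles the insulin receptor, while InsR and Irs2 did not pass. IGF1R was at 27.9 to 87.7 with a median of 74.0 in 52-week knockouts, against 152, 88.4 and 192 in 16-week knockouts. The lowest younger mouse, with 21 counts, was just above the highest old mouse. The log2 fold change of -1.13 (SE 0.40, limma adjusted p = 0.0238) was not called under either centring. Irs2, an adaptor downstream of both receptors, had a log2 difference of -0.01 (SE 0.40, limma adjusted p = 0.98).

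AdipoR2, a receptor of the fat cell hormone adiponectin, was at 150.1 to 237 with a median of 195 in 52-week knockouts, against 481, 568 and 271 in 16-week knockouts. The groups did not overlap, with a log2 fold change of -1.11 (SE 0.30, limma adjusted p = 0.00572), not called under either centring. AdipoR1 had a log2 difference of -0.39 (SE 0.82, limma adjusted p = 0.741).

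The 4 reference genes had a median of -0.71. Hprt, a purine salvage enzyme, fell by 1.09 on the log2 scale (SE 0.33, limma adjusted p = 0.0104), and Rpl19, Sdha and Gusb had log2 differences of -0.81, -0.60 and 0.17 and did not pass. Of the genes that fell, IL-10, Hprt, Prdm1, AdipoR2, IGF1R, Cd69 and TGFb, between -1.05 and -1.19, lay nearest to the median of the whole panel.

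The same ages were compared in control Tregs, which share no sample with the knockout comparison. There 5 genes (5.21%) passed by limma, 3 higher (3.12%) and 2 lower (2.08%), with 3 mice at each age, and 25 had an unadjusted p under 0.05. Lmna, Lrig1 and ICOS passed in both genotypes, each in the same direction. With samples rescaled to one total, 4 genes passed in controls, 3 higher and 1 lower, so 1 of Lrig1 and ICOS was lost. Irs2 and Mmp9, a matrix metalloproteinase, passed in controls, with log2 fold changes of 1.92 and 3.93, and did not pass in knockouts, with -0.01 and 0.63.

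Of the 52 genes that passed in knockouts, 42 had a control difference of the same sign. The share of the same sign over all 96 genes was not taken, so 42 is not read as agreement between genotypes. For 48 of the 52 the difference was larger in size in knockouts than in controls. Since these genes were picked by the knockout values, a larger size there follows in part from the choice. The median over all genes was -0.82 in knockouts and -0.28 in controls. With samples rescaled to one total it was -0.82 and -0.13.

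Whether the difference with age itself differed between genotypes was tested by the interaction. By limma 0 of the 96 genes (0%) passed, with 26 at an unadjusted p under 0.05 and 4 called by voom on the recovered counts. The 5 genes with the smallest p follow, as differences that were not called.

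Lmna had signals of 2364, 3094 and 2636 in 52-week controls, against 130.1, 113 and 86.6 in 16-week controls. Its log2 fold change with age was 2.13 in knockouts and 4.62 in controls, an interaction of -2.49 (SE 0.64, limma adjusted p = 0.075). Lmna thus differed with age in both genotypes.

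Igfbp7 was at 987, 202 and 2143 in 52-week controls, against 492, 476 and 719.6 in 16-week controls, with overlap. Its log2 fold change was 5.19 in knockouts and 0.45 in controls, an interaction of 4.74 (SE 1.34, limma adjusted p = 0.0823). Helios had -3.38 in knockouts and -1.35 in controls, an interaction of -2.03 (SE 0.60, limma adjusted p = 0.0823).

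Myadm had log2 fold changes of 2.93 in knockouts and 0.75 in controls, an interaction of 2.17 (SE 0.66, limma adjusted p = 0.0823). Irs2 had -0.01 in knockouts and 1.92 in controls, an interaction of -1.93 (SE 0.61, limma adjusted p = 0.0839). For Foxp3 the values were -2.59 and -0.83, with an interaction of -1.76 (SE 0.76, limma adjusted p = 0.157), and for IL-10 they were -1.05 and 0.93, with an interaction of -1.98 (SE 0.64, limma adjusted p = 0.0839). Lmna, Igfbp7, Helios, Myadm and Irs2 were all called without 52-week knockout mouse 5, when 7 genes passed.

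The immediate early list made up 25.3% to 30.3% of the signal in 52-week controls and 12.6% to 17.4% in 16-week controls. Fosb, Atf3, Klf4 and Fos had log2 differences of 0.84, 1.31, 0.95 and 1.09 in controls, none of which passed (limma adjusted p from 0.0954 to 0.368).

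**Figure D4:**
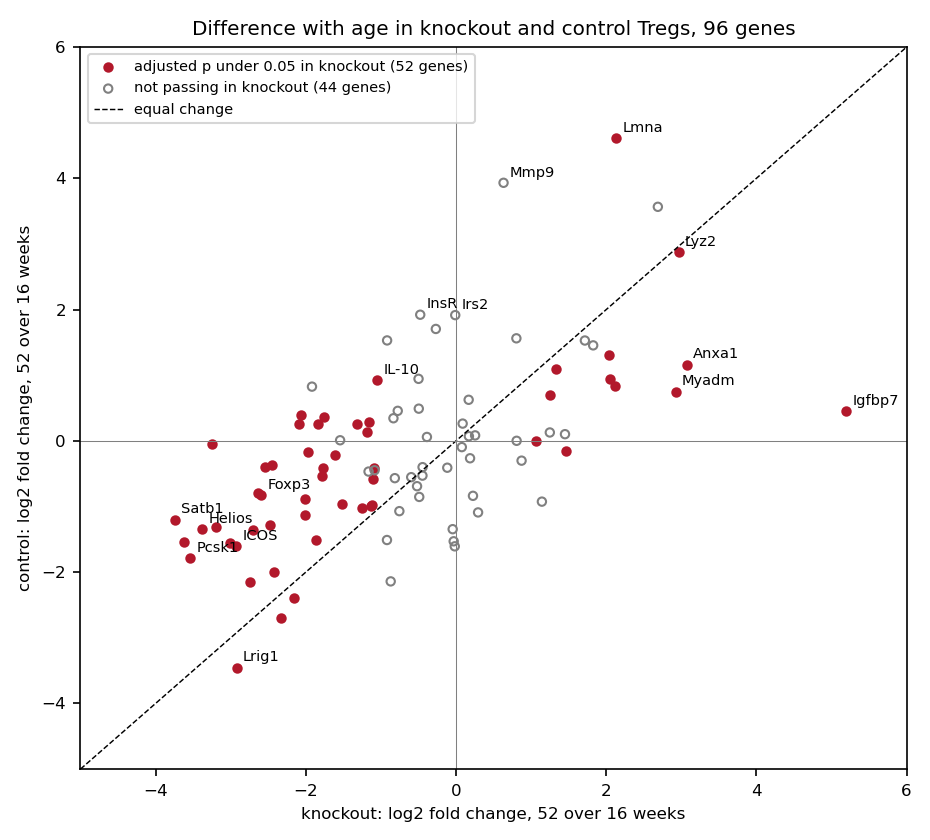
Log2 fold change of signal + 1 at 52 over 16 weeks in knockout Tregs (horizontal) against that in control Tregs (vertical), for 96 genes; filled points passed in knockouts (52) and open points did not (44), and the dashed line marks equal values. Igfbp7 lies far to the right of the line, at 5.19 and 0.45, and Lmna above it, at 2.13 and 4.62.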

How the data were processed

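Per the labels' protocols, VAT of each mouse was digested with collagenase, sorted Tregs were lysed, and lysate was counted on a NanoString panel of 96 genes. The authors' deposited values are linear signal. The panel totals, about 100000 in the chow-fed knockouts and up to 126723 in a 16-week control, were read from the values. No label states a background correction or the software. In 2302 of 2304 values the deposited signal was a whole number of steps within 0.02, which gave the counts; 5 values were 0.

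All tests used log2(signal + 1), to which limma 3.58.1 (R 4.3.3) fitted 6 group means over all 24 samples, with no gene filtered out. Its two-sided p-values took the Benjamini-Hochberg adjustment across 96 genes, with a threshold of 0.05. The fit was also run on simulated data, with genes raised and lowered at random. These data held no uneven spacing of low counts and no chosen block of bright genes, so they do not test the effect of either. Of the panel names 88 matched a symbol, 4 a synonym, 1 several and 3 none (LeptinR, Perforin, Rorgt), and these 4 joined no list. The members were chosen by their labels, and the gene lists were made with earlier results of these data known. Named were the passing genes with the 30 smallest p, 10 genes always (Insr, Foxp3, CD25, Il1rl1, Pparg, Gata3, Klrg1, Il10, Areg, Igfbp7), and the 5 smallest p of the interaction. Other named genes were chosen after their values were seen. 1 gene that the rule takes is not reported here, although counts include it.

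Replicates are separate mice; no label gives a batch. Same-numbered mice were not paired: deviations from group means correlated at -0.19, 0.12 and -0.05. Alternatives were pseudocounts, filters, scalings, the samples fitted, weights, priors, voom, a depth covariate, a replicate block and single omissions. Added after the data were seen were missing non-whole values, a count minimum of 20, scaling outside the immediate early list, and both subsets of the old mice.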

Additional observations from a re-analysis of the deposited data

Results flagged for a closer look

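Of 36 items tested in the 6 knockout mice of 52 weeks (the total count and 35 genes), 2 had a mouse far from the others; chance flags about 1 in 20. Helios was 763 in mouse 5, while the other 5 mice lay between 173 and 279.5 (gap over range 0.678 on the log2 scale). Nfkbid was 16.3 in mouse 1, while the highest mouse had 572 (gap over range 0.712). Both genes passed in the age comparison without either mouse.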

How the results depend on the processing

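In the knockout comparison 52 genes passed, and 44 to 60 did under pseudocounts, filters, weights, priors, voom, the depth covariate and the fit of the 4 chow groups, with 35 when only the 2 groups were fitted. Centring on the median gave 32, on the reference genes 33, scaling outside the immediate early list and Igfbp7 32, and leaving out old mice 2 to 5 gave 30. Omitting 1 mouse gave 37 to 56. Of the 52, 28 kept the call in all 9 omissions, 23 in all other settings, the 2 subsets of old mice aside, and 22 in both. InsR, which did not pass, turned to 0.29 and 0.11 under the centrings, 0.075 with the depth covariate and 0.16 with the last scaling. Pparg turned to 0.32, 0.14 and 0.27 under the 3 scalings. Mmp9 ran from -0.39, without 16-week mouse 2, to 2.15 with 1 mouse left out, and turned, with old mice 2 to 5 left out, to -0.31, where Mmp12 turned to -0.30. The cause was not tested.

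In controls 5 genes passed, 19 with array weights, 10 with voom and 2 to 5 with 1 mouse left out. The interaction called 0 genes, 8 with a pseudocount of 10, 3 without the 24 lowest genes, 1 with median centring, 1 rescaled to one total, 3 in the 4 chow groups, 23 with array weights, 3 with a variance trend, 4 with voom, 1 without genes under 20 counts, 1 with old mice 2 to 5 left out and 0 to 7 with 1 mouse left out.

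The replicate block called 44 genes in knockouts, 5 in controls and 0 in the interaction; the numbers did not pair the mice. The edgeR and DESeq2 alternatives were not run, since the deposited unit is signal. The 16-week knockouts had the fewest counts, which limits the lowest genes.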

Other observations

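Old mouse 1, the deepest of the 9 libraries with 135141 counts, held several genes at counts near 10 or 20. Among them were Tcra at 10, Gramd3 at 10, S100a6 at 15, Satb1 at 18, Lrrc32 at 21, Nrp1 at 21 and Nfkbid at 22. Other T cell genes were not low in the same library, where ICOS had 334 counts, CD25 491, Foxp3 1908 and Gata3 2224. Rpl19 had 26131. The mean correlation of this mouse with the other 5 old knockouts across genes was 0.84 on log2 values. Without mouse 1, 56 genes passed in the age comparison.

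The uneven spacing of low counts was not limited to the chow-fed knockouts. The share of counts between 6 and 60 that ended in 9, 0, 1, 2 or 3 was 69% in knockouts on the high-fat diet, 54.2% in controls on it, 64.2% in 52-week controls and 71.4% in 16-week controls. Single libraries ran from 38.1% to 89.3%. It was described only for counts read back from the deposited steps, and no label says how lysates were prepared for counting beyond the instrument's protocol.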
